A study of Homo sapiens with 4 samples.

Results

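S100A2, S100A3, S100A4, S100A5, S100A6, S100A10, S100A11, S100A13, S100A14 and S100A16 are members of the S100 gene cluster in band 1q21 of chromosome 1, and their contacts were read from H3K27ac HiChIP loop lists of M14 melanoma cells. A loop was counted when a GENCODE transcript start of a member lay in either of its 5 kb anchors on hg19. By this rule 10 of the 27289 WT loops and 14 of the 25621 STAG2-KD loops belonged to the cluster. On chromosome 1 the lists held 3107 and 3151 loops. The loops of the 2 lists together were 18 distinct contacts.

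M14 is a human melanoma cell line. All cells held a vector from which doxycycline switches on a hairpin RNA that targets STAG2, a cohesin subunit. The paper gives hygromycin, blasticidin or puromycin for the selection of stable populations and does not name the drug for these cells. WT cells were cultured without doxycycline and STAG2-KD cells with it for 5 days before crosslinking, so doxycycline itself and the knockdown cannot be told apart. The labels name 4 samples, 2 per group, and 1 loop list per group was analysed. HiChIP joins chromatin that lies close together in the nucleus and enriches it with an antibody, here against acetylated lysine 27 of histone H3, a mark of active promoters and enhancers. The lists give positions only, so the depth behind a loop is unknown and the level of STAG2 could not be checked in them. A single hairpin was used. Differences between the lists thus lack replicates, and p-values were not computed. A contact missing from a list may have been just short of the limit of the loop caller.

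S100 proteins are small calcium-binding proteins of the EF-hand type that work mostly as dimers and change the activity of the proteins they bind. Melanocytes and melanomas have been known for their S100 proteins for decades, and S100B, whose gene lies outside the 1q21 cluster, serves as a melanoma marker. In the 1q21 band the S100 genes frame the epidermal differentiation complex, whose genes build the outer layer of the skin. Cohesin and the DNA-binding protein CTCF form chromatin loops that can bring distant promoters and enhancers together.

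The members lie in 2 groups, and all 10 genes are on the minus strand. Positions are on chromosome 1 of hg19, counted from 1. S100A10 (ENSG00000197747, 151955391 to 151966335) and S100A11 (ENSG00000163191, 152004982 to 152020383) form the first group. The other 8 members start between the S100A6 bin and the last S100A13 bin, 95 kb apart. They follow each other as S100A6, S100A5, S100A4, S100A3, S100A2, S100A16, S100A14 and S100A13. The starts of the 10 genes fall into 13 bins of 5 kb. S100A3 shares its bin with 1 start of S100A4, and S100A14 shares its bin with 2 starts of S100A16. S100A13 shares a bin with S100A1 and ENSG00000272030. These genes cannot be separated by an anchor there. The S100A10 bin also holds a start of ENSG00000229021 and the S100A6 bin one of ENSG00000238279, so the loops of S100A10 and S100A6 have the same ambiguity.

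More members had a loop in the STAG2-KD list than in the WT list. In WT, loops reached S100A2 with 4, S100A4 with 3, S100A10 with 3 and S100A11 with 1, and the other 6 members had 0. In STAG2-KD, S100A2 had 5 loops, S100A4 and S100A16 had 3 each, S100A11 had 2, and S100A3, S100A6, S100A10 and S100A13 had 1 each. S100A5 and S100A14 had 0 in both lists. Thus 4 of 10 members had a loop in WT and 8 of 10 in STAG2-KD, while 60.9% and 63.2% of all protein-coding genes had none. The 4 were among the 8, so that 8 of 10 had a loop in either list, while 44.5% of all 19222 protein-coding genes did so. With canonical starts only, 3 members had a loop in WT and 5 in STAG2-KD, and 5 of 10 had one in either list. The shares of all genes count every start of a gene, so they are no like measure for these canonical counts. A gene with loops had a median of 2 of them in both lists, and 4 loops marked the 90th percentile of all genes. With 1 list per group the order of neighbouring counts carries no error and neighbours that differ by 1 loop cannot be ranked.

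Counted by direction, 6 members had more loops in STAG2-KD, 1 had more in WT and 1 had equal numbers. Among the 8562 protein-coding genes with a loop in either list, 34.4% had more in STAG2-KD and 43.5% had more in WT. The members with loops in the STAG2-KD list alone were S100A3, S100A6, S100A13 and S100A16, 4 of the 8, beside 12.3% of genes with loops. No member had loops in the WT list alone, beside 17.3% of genes. The members lie side by side and share bins, so these are not 8 separate observations. The excess also depended on which starts were counted. With starts in the next bin allowed, 6 members had more loops in STAG2-KD and 1 had more in WT. With protein-coding transcripts only, these numbers were 5 and 1. With the Ensembl canonical start of each gene alone, an alternative chosen after the lists were seen, both lists held 9 loops, and 3 members had more in STAG2-KD and 2 more in WT.

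**Figure D1:**
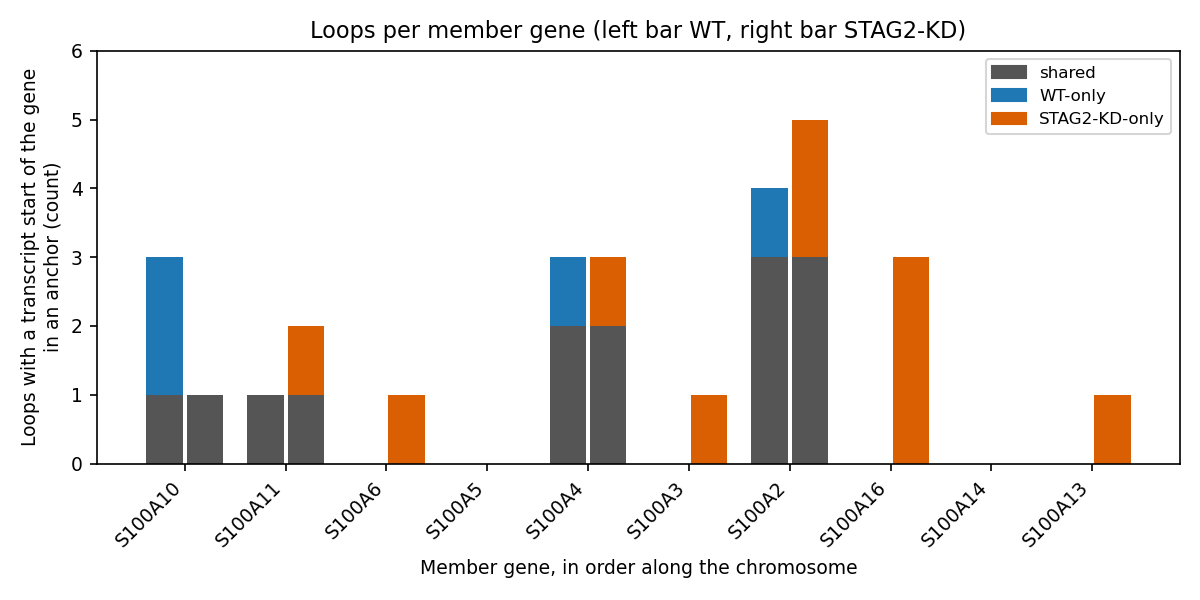
Number of loops (vertical axis, count) at each member gene in order along the chromosome, with the left bar for WT and the right bar for STAG2-KD, and colours for shared and private loops. S100A2 has 4 and 5 loops, and S100A16 has 0 in WT and 3 in STAG2-KD.

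S100A2 had 4 loops in WT, beside 3 for S100A4 and for S100A10, and 5 in STAG2-KD. S100A2, whose expression is often altered in epithelial tumours, is annotated from 153533584 to 153540366 (ENSG00000196754). Its canonical start at 153538320 lies in the bin from 153535001 to 153540000, which carried all of its loops. S100A4, known as metastasin for its link to cell motility, runs from 153516089 to 153522612 (ENSG00000196154), and its canonical start at 153518282 lies in the bin from 153515001 to 153520000. These 2 promoters were joined to each other and to the start of RPS27, which encodes a protein of the small ribosomal subunit, in both lists. The bases before these 3 starts are shown because they are the anchors of the contacts that both lists hold. The sequences are the 250 bases before the RefSeq start (GRCh38.p14 table), placed by exact match on GRCh37 and written 5′ to 3′ in the direction of the gene. Capitals mark letters of the motifs searched on both strands, each by exact letters. For AP-1, a factor of growth signalling, the letters were TGANTCA. For SP1, common at promoters without a TATA box, they were GGGCGG. The TATA box itself was searched as the letters TATAAA. For the M-box of melanocyte factors the letters searched were CATGTG. The CTCF core was searched as well, in the form used for the anchors.
S100A2, chr1:153538321-153538570, minus strand: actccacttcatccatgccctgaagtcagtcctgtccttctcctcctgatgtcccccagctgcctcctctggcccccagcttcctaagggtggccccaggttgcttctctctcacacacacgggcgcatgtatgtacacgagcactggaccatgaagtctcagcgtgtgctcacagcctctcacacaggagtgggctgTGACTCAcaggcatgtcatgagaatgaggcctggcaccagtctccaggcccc
S100A4, chr1:153518283-153518532, minus strand: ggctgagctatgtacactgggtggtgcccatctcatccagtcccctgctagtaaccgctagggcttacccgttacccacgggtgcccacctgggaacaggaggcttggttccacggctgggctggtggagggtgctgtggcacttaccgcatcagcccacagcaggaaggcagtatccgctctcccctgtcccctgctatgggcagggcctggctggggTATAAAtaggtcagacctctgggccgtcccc
RPS27, chr1:153962988-153963237, plus strand: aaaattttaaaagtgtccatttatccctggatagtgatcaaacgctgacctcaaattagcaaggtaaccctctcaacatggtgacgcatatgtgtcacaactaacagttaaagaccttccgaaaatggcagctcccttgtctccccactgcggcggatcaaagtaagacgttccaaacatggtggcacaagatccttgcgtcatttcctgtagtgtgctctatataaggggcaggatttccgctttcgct

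The S100A2 window held 1 AP-1 match and the S100A4 window held 1 TATA box match. The RPS27 window held none of the 5 motifs. Of 35116 RefSeq promoter windows of this length, 6.57% held the AP-1 letters, 10.7% the TATA letters, 42.6% the SP1 letters, 9.42% the M-box letters and 0.920% the CTCF core. A letter match is a description and not a bound site, and a window without a match lacks only these exact letters. The motifs other than the CTCF core were chosen after the lists were seen.

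S100A2 had 3 shared loops. The first joined it over 35 kb with 153500001 to 153505000, a bin that lies beyond the 3′ end of S100A6, has no annotated start and is 3467 bases from the nearest protein-coding start, that of S100A6. The second ran 20 kb to the S100A4 bin. The third ran 425 kb to the RPS27 bin, from 153960001 to 153965000. The WT-only loop of S100A2 ran 105 kb to the start of ILF2, a gene for a double-stranded RNA-binding protein. Its STAG2-KD-only loops ran 95 kb to the start of SNAPIN, which encodes a protein of vesicle fusion, and 400 kb to the start of SLC39A1, which encodes a zinc transporter. The ILF2 and SNAPIN bins are 2 bins apart, so that the WT-only and the STAG2-KD-only contact on this side of S100A2 were near neighbours. Within a tolerance of 2 bins they count as 1 contact.

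S100A4 had 3 loops in each list, of which 2 were shared. Besides the S100A2 loop, its canonical start ran 445 kb to the RPS27 bin in both lists, the longest of the 18 contacts. Its WT-only loop reached a start of INTS3, a subunit of the Integrator complex, 205 kb away in the bin from 153720001 to 153725000. Its STAG2-KD-only loop did not touch the canonical start. It left the neighbouring bin from 153520001 to 153525000, which holds 1 start of S100A4 and both starts of S100A3, a gene known from hair follicles, and ran 20 kb to the bin from 153500001 to 153505000. This was also the only loop of S100A3. The partner bin thus had 1 loop in WT, to S100A2, and 2 in STAG2-KD, to S100A2 and to the S100A3 bin.

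RPS27 was the sole partner bin with contacts to more than 1 member bin in both lists. WT had 8 loops at RPS27 and STAG2-KD had 11. Both lists held 6 of them, and the S100A4 and S100A2 loops were 2 of those 6. Its remaining shared loops ran to 3 bins with starts of INTS3 or SLC27A3 and to the bin of C1orf43 and UBAP2L. Among all RPS27 contacts of either list, the 2 S100 loops were the longest. The SLC39A1 bin, 25 kb before RPS27, was also well connected, with 9 WT and 10 STAG2-KD loops. It joined S100A2 in STAG2-KD only.

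**Figure D2:**
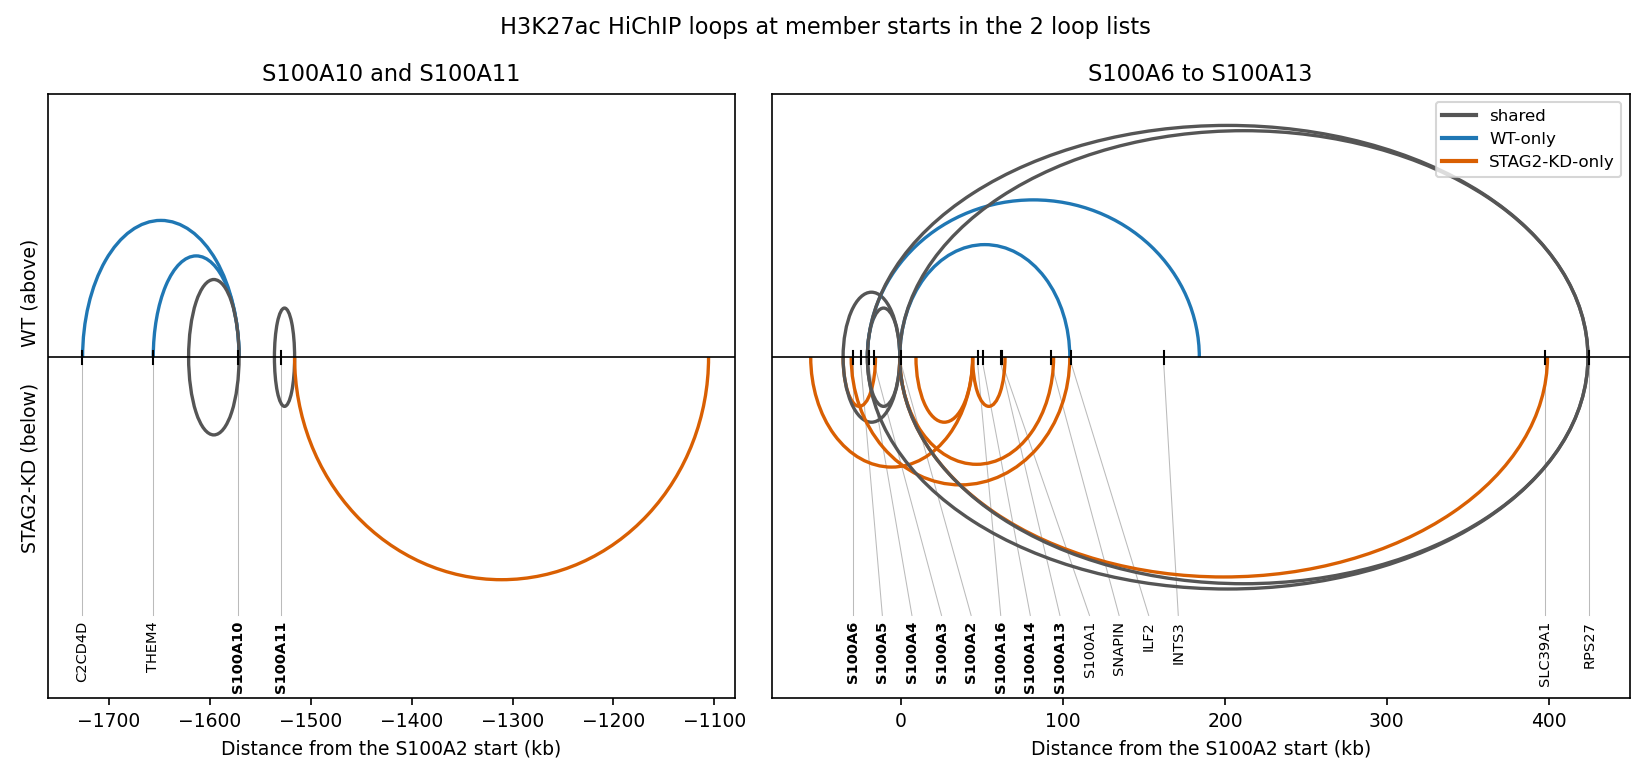
Loops with a member start at an anchor, drawn by distance from the canonical S100A2 start in kb, with WT above and STAG2-KD below the line; arc height rises with loop distance, and ticks mark canonical starts (members in bold). The shared arcs from S100A4 and S100A2 end at RPS27 at 445 kb and 425 kb, the arcs at S100A16 lie below the line alone, and no arc joins the left panel to the right panel.

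Toward the other end of the second group, S100A16 had 0 loops in WT and 3 in STAG2-KD. S100A16, one of the most widely expressed S100 proteins, runs from 153579362 to 153585621 (ENSG00000188643). All of its loops left the bin from 153580001 to 153585000, which holds 3 of its 5 starts. They ran 100 kb to the bin from 153480001 to 153485000, 35 kb to the bin from 153545001 to 153550000, and 20 kb to the last bin of S100A13, which also holds the start of S100A1. The first partner was an anchor in WT as well, with 2 loops, while the other anchors of these contacts had 0 WT loops. The canonical S100A16 start at 153585613 lies in the next bin, from 153585001 to 153590000, together with all 6 starts of S100A14, and this bin had 0 loops in both lists. The contacts of S100A16 therefore rest on starts inside the gene, the RefSeq one at 153581831 among them.

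S100A6, also called calcyclin, had 1 loop, which was in the STAG2-KD list only and ran 135 kb to ILF2. The gene lies from 153507075 to 153508720 (ENSG00000197956), with 5 starts in 1 bin. ILF2 had been joined to S100A2 in WT, so that the ILF2 bin had 1 S100 partner in each list, S100A2 in WT and S100A6 in STAG2-KD. Counting every partner, ILF2 had 5 WT and 6 STAG2-KD loops, and 2 appeared in both lists. The windows before the S100A6 start and before the S100A16 start in the looped bin are shown because each bin had loops in the STAG2-KD list alone.
S100A6, chr1:153508468-153508717, minus strand: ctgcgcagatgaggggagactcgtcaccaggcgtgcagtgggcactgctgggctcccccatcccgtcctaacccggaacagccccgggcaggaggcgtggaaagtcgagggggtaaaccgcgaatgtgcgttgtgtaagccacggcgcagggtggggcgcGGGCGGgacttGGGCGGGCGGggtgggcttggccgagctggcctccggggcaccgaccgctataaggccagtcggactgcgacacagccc
S100A16, chr1:153581832-153582081, minus strand: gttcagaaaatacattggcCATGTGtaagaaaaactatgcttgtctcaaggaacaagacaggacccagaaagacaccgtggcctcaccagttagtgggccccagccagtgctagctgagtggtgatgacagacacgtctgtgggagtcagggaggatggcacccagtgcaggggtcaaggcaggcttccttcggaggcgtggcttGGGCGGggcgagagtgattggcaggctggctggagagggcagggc

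The S100A6 window held 3 SP1 matches, of which the last 2 overlap. The S100A16 window held 1 SP1 match and 1 M-box match. Over the 10 members, 15 RefSeq windows were placed on GRCh37 without ambiguity. Of these, 6 held SP1 letters, 3 AP-1 letters, 2 TATA letters, 2 M-box letters and 0 the CTCF core. No motif was shared by all 4 of the S100A2, S100A4, S100A6 and S100A16 windows shown.

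S100A13, which takes part in the release of growth factors without a signal peptide, had 0 loops in WT and 1 in STAG2-KD. That loop was the 20 kb contact with S100A16. It cannot be assigned to S100A13 rather than S100A1, a calcium regulator of heart muscle, or ENSG00000272030, since all of them start in the bin. The bin of the canonical S100A13 start, from 153595001 to 153600000, had 0 loops. A RefSeq start of S100A13 at 153606837 lies in the next bin but 1, the CHTOP bin, with 3 loops in each list, which the rule did not count. S100A5, known from olfactory tissue, and S100A14, an epithelial member, had no loop although loops passed over them. Over the S100A5 bin 3 WT and 5 STAG2-KD loops passed, and over the bin of S100A14 6 and 8.

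S100A10 was the member with more loops in WT. S100A10, the partner of annexin A2 at the cell membrane, had 3 loops in WT and 1 in STAG2-KD at its single bin from 151965001 to 151970000. The shared loop was 50 kb long. Its partner (151915001 to 151920000) has the start of a noncoding gene, ENSG00000286581. The WT-only loops ran 85 kb to THEM4, which encodes a thioesterase, and 155 kb to C2CD4D. Both partner bins stayed in use in the STAG2-KD list, THEM4 with 4 loops in WT and 3 in STAG2-KD, and C2CD4D with 5 and 9.

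S100A11, also called calgizzarin and a partner of annexin A1, had 1 loop in WT and 2 in STAG2-KD, and none at its main promoter. Its canonical start at 152009480 lies in a bin with 0 loops. The loops left the bin from 152020001 to 152025000, which holds the start of 1 transcript without a defined coding sequence. The shared loop, 20 kb long, ended at 152000001 to 152005000, a bin nearly all downstream of S100A11, with 19 bases in the gene, so it passed over the main promoter. The STAG2-KD-only loop spanned 410 kb and ended at 152430001 to 152435000, where no gene is annotated and the nearest protein-coding start, that of CRNN, is 43262 bases away. That bin was no anchor in WT.

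**Figure D3:**
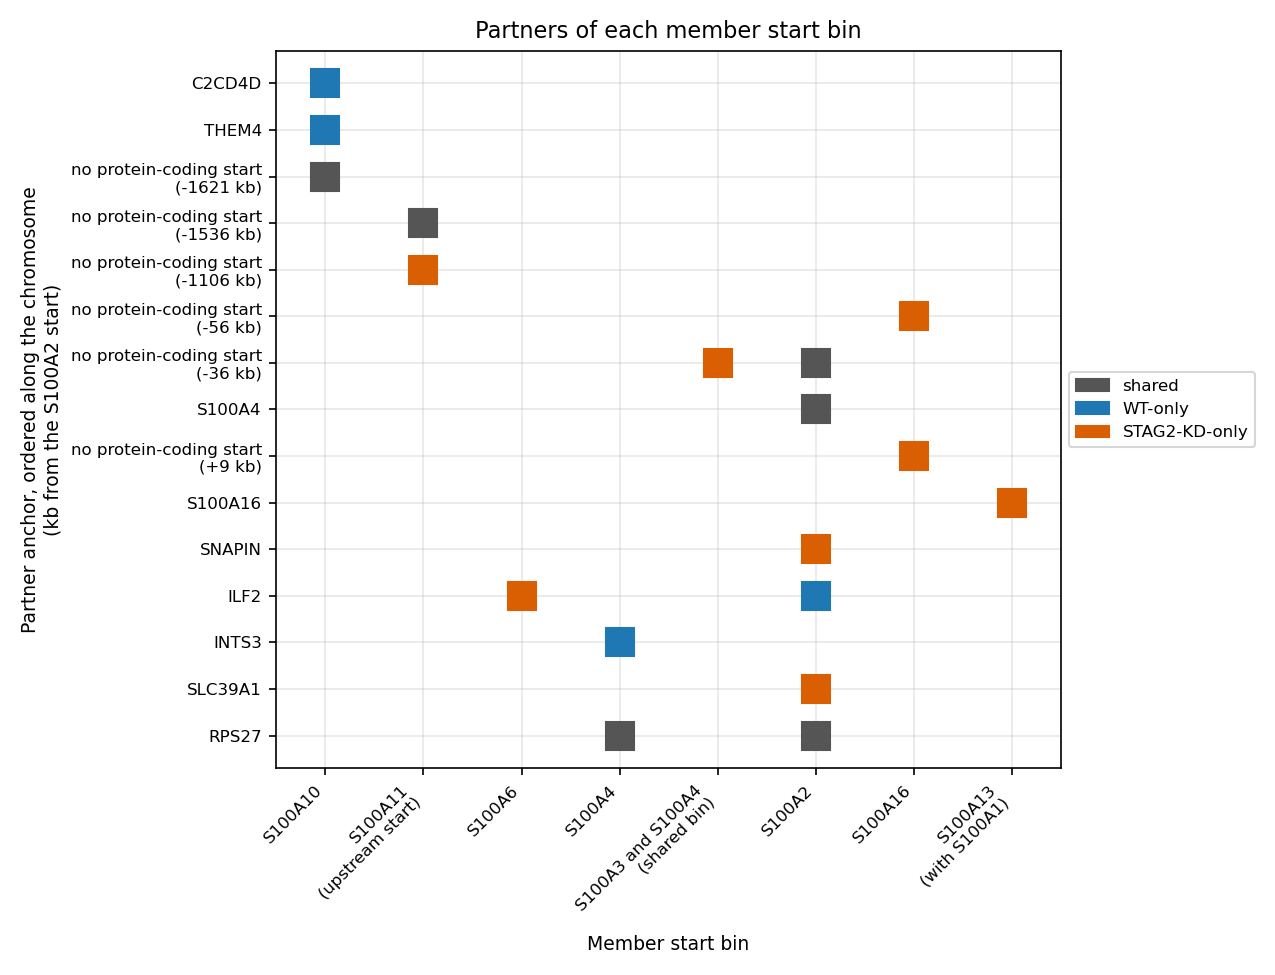
Partner anchors (rows, ordered along the chromosome, with kb from the S100A2 start where no protein-coding start lies in the bin) of the 8 member start bins with loops (columns). Squares mark a listed loop, coloured as shared, WT-only or STAG2-KD-only; a contact between 2 members is drawn once. RPS27 is joined to S100A4 and S100A2 in both lists, and the ILF2 row holds S100A2 in WT and S100A6 in STAG2-KD.

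Contacts between starts of members were few when a start had to lie in each anchor. Of the 78 pairs of member bins, 64 lay at least 20 kb apart, the shortest distance of a loop in either list. WT held 1 of these pairs, S100A4 with S100A2, and STAG2-KD held 2, the same contact and S100A16 with S100A13. Both were 20 kb long, the shortest listed distance. With starts in the next bin allowed, the counts were 3 and 7. Both include the shared 20 kb loop of S100A11, whose ends both lie at or next to bins of that gene. Counting loops with both anchors inside the span of either group, whether or not a start lay in them, the numbers were 2 in WT and 4 in STAG2-KD, the loops from S100A11 to the bin at 152000001 and from S100A16 to the bin at 153545001 included. Closer pairs, such as S100A6 with S100A5, could not be seen. Between the bins of S100A10 and S100A11 and those of the second group, 30 pairs at 1485 to 1635 kb were possible and 0 were listed. Contacts of that length were rare throughout, with 53 loops of at least 1485 kb in the whole WT list and 66 in the STAG2-KD list.

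Contacts from a member start to a bin without one numbered 9 in WT and 12 in STAG2-KD and went both ways. Of these, 8 and 10 left the span of their group, and this view was added after the lists were seen. Toward lower coordinates WT had 5 loops with a median distance of 50 kb and a range of 20 to 155 kb, and STAG2-KD had 6 with a median of 35 kb and a range of 20 to 100 kb. Without the loops inside a group the medians were 67.5 kb over 4 loops and 42.5 kb over 4. Toward higher coordinates WT had 4 with a median of 315 kb (105 to 445 kb) and STAG2-KD had 6 with a median of 405 kb (95 to 445 kb). A protein-coding start lay at the far end of all 4 WT loops and of 5 of the 6 STAG2-KD loops toward higher coordinates. Toward lower coordinates this held for 2 of 5 WT loops, those of S100A10, and for 0 of 6 STAG2-KD loops. A view that also counts a protein-coding start within 5 kb of the partner bin was added later. In it this held for 4 of 5 and 4 of 6 toward lower coordinates. Toward higher coordinates it held for 4 of 4 and 5 of 6. Every start added on the lower side was that of a member: S100A6, S100A2 or, for its own loop, S100A11. The contrast between the sides thus depends on whether member starts next to the partner bin are counted. Counting any annotated start, a promoter lay at the partner of 77.8% of outward contacts in WT, with an exact binomial 95% interval of 40.0 to 97.2. In STAG2-KD it was 50.0%, with an interval of 21.1 to 78.9. Over all promoter anchors of chromosome 1 the values were 54.7% and 52.8%. Those values count each contact between 2 promoters from both ends. The member shares leave out contacts between members, so the 2 measures are not alike. The intervals cover the counting of loops only.

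The gap between the 2 groups was nearly free of anchors. From 152025001 to 153505000, 1480 kb with 52 protein-coding genes, 3 bins were anchors in either list, and each lay in a contact with a member or with ILF2 or SLC27A3. They were the S100A11 partner that starts at 152430001 and the bins that start at 153480001 and 153500001, next to S100A6. No loop crossed the whole gap, for which the longest WT loop of chromosome 1, 1335 kb, was too short. All 36 epidermal differentiation genes examined, among them FLG, IVL and the LCE and SPRR families, had 0 loops in both lists. Likewise S100A7, S100A7A, S100A7L2, S100A8, S100A9 and S100A12, the S100 genes of inflamed skin and myeloid cells, had 0. S100A7L2 is annotated as a pseudogene. Over all protein-coding genes 60.9% in WT and 63.2% in STAG2-KD had no loop. The gene lists were chosen with earlier results of these data known.

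Of 7 genes examined beyond the second group, 5 had a loop in WT and 6 in STAG2-KD, with 2 higher in each list and 2 equal. Over all protein-coding genes 60.9% in WT and 63.2% in STAG2-KD had no loop. Of those with a loop in either list, 34.4% had more in STAG2-KD and 43.5% more in WT. SNAPIN, ILF2 and INTS3 are also partners of member loops, so it was known from those contacts that they had a loop. The share of looped genes here is therefore no separate result. INTS3 had 11 loops in WT and 7 in STAG2-KD, and SLC27A3, a fatty acid transport gene, had 5 and 2. CHTOP and GATAD2B had 3 in each list, and SNAPIN had 0 and 2. NPR1 had 0 in both.

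Sharing of the S100 contacts was set beside that of chromosome 1. In all, 6 of the 18 contacts were in both lists. For WT this was 60.0% of the member loops, with an exact binomial 95% interval of 26.2 to 87.8, and for STAG2-KD 42.9%, with an interval of 17.7 to 71.1. The same share was 41.5% for WT and 40.9% for STAG2-KD on chromosome 1, and 38.0% and 40.5% over the whole lists, all inside those intervals. The intervals are so wide that no difference from the chromosome was detectable with 10 and 14 loops. They also treat the loops as independent, although several leave the same bin. Of the 12 private contacts 8 were in the STAG2-KD list, beside 50.6% of the private loops of chromosome 1. With canonical starts only, 4 were in each list. Among the 12, 2 had a loop of the other list within 2 bins at both anchors, beside 19.5% of the private loops of chromosome 1.

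The anchors of the private contacts were looked up in the other list. Of the 4 WT-only contacts, all 4 had both anchors still in use in STAG2-KD, with other partners. Among the 8 STAG2-KD-only contacts, WT used both anchors of 1, a single anchor of 5 and neither anchor of 2. For all WT-only loops of chromosome 1 both anchors were in the other list in 46.3%, a single anchor in 47.8% and neither in 5.89%. For STAG2-KD-only loops these shares were 41.1%, 49.7% and 9.13%. Of the 8 STAG2-KD-only contacts of members, 3 left the same S100A16 bin, so they are not separate observations. The anchors of these contacts at which WT had no loop were the bins of S100A3, S100A6, S100A13 and S100A16, the SNAPIN bin and 2 bins without a start.

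**Figure D4:**
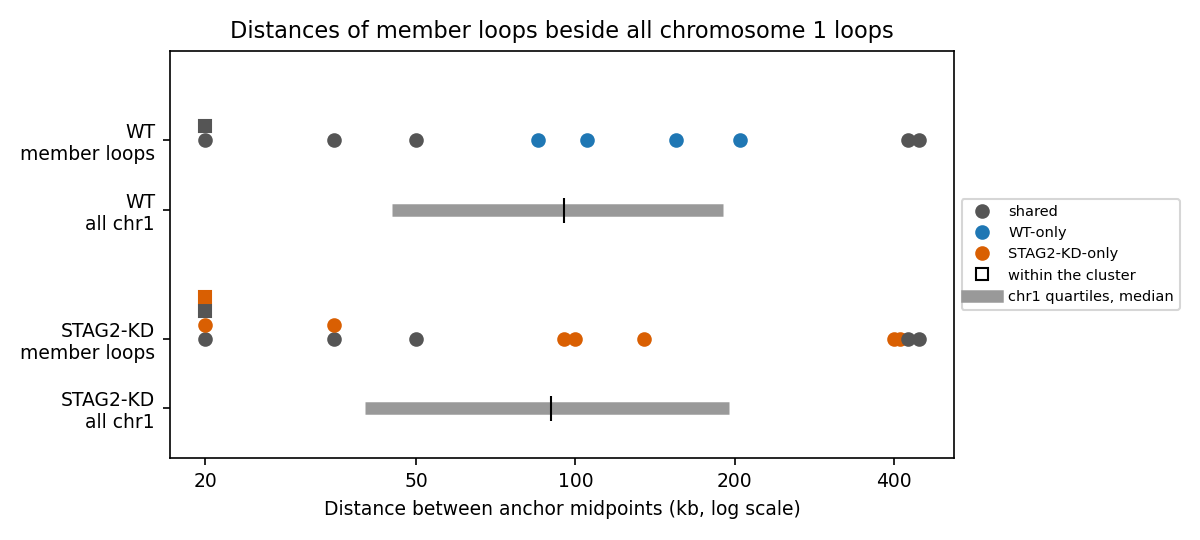
Distance between anchor midpoints (kb, log scale) of each member loop in WT and STAG2-KD, with circles for contacts out of the cluster, squares for contacts within it, colours for sharing, and grey bars for the quartiles and the median of all chromosome 1 loops. The shared contacts lie at 20 to 50 kb and at 425 and 445 kb, and the WT-only contacts lie between, at 85 to 205 kb.

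The median distance of the member loops was 95 kb in WT (order-statistic 95% interval 20 to 425 kb) and 72.5 kb in STAG2-KD (20 to 410 kb). All chromosome 1 loops had medians of 95 kb and 90 kb. Shared contacts fell at both ends of the range, 4 at 20 to 50 kb and 2 at 425 and 445 kb. The 4 WT-only contacts were of middle length, 85 to 205 kb. The 8 STAG2-KD-only contacts ran from 20 to 410 kb with a median of 97.5 kb.

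The sequence of the anchors was read for features that the rule had not used. The median G and C content was 54.7% in the member bins and 44.5% in the 3479 anchors of chromosome 1. These sets are not alike. By the rule every member bin holds a start, which 42.3% of the WT and 40.3% of the STAG2-KD anchors of chromosome 1 did, and 5 member bins had no loop. The content of anchors with a start was not computed, so the difference cannot be read as a trait of the cluster. The enzyme MboI, which cut the chromatin, has a median of 12 sites (GATC) in the 13 member bins and of 14 in the chromosome 1 anchors. The bin of the main S100A11 promoter, without a loop, had 4 sites, equal to the lowest number among the chromosome 1 anchors. Whether few sites kept loops from being called there was not tested. The other member bins had 10 to 18 sites.

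The CTCF core motif, matched by exact letters with 3 free positions, occurred in 2 of the 13 member bins and in 1 of the 13 partner bins, beside 7.50% of the chromosome 1 anchors. All 3 were among the 7 of these 26 bins that had loops in the STAG2-KD list alone, while 14 bins had loops in both lists and 5 had none. The share among all chromosome 1 anchors of the STAG2-KD list alone was not computed. No link of the motif with that list can therefore be read from these few bins. With 1 more position left free, a form that takes in every match of the first, 4 member bins and 2 partner bins held a match, beside 18.1% of anchors. Of those 4 member bins, 2, the S100A5 bin and the second S100A2 bin, had no loop in either list. The sites of the stricter form are shown on GRCh37 with 9 bases on each side and the matched letters in capitals, because they lie in anchors seen in the STAG2-KD list alone.
S100A6 bin, chr1:153507767-153507796, plus strand: ggaagatggCCACGAGGAGGCcaatggcct
S100A3 and S100A4 bin, chr1:153522035-153522064, minus strand: catttgctcCCAGCAGGGGGCccagcagtg
S100A11 partner bin, chr1:152432926-152432955, minus strand: tgcacacaaCCAGCAGGTGGCgcccaccct

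The last of these is the far end of the 410 kb contact of S100A11, whose own bin held no match. The bins of S100A2, S100A4 and RPS27, which carried the longest shared contacts, held no match of either form. A match of letters is not a bound site, and binding of CTCF was not among the files used here.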

How the data were processed

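Samples of M14 H3K27ac HiChIP were grouped by their titles, 2 per group. The deposited files hold 1 loop list for each group, attached to its replicate 1, and it is not given in the sources used here if replicate 2 went into it. The descriptions of all 4 samples end in the word merged, without saying what was merged. The authors used HiC-Pro for alignment (hg19), hichip-peaks for H3K27ac peaks and FitHiChIP for loops. Versions are not given in the sources used here. Of the 3 deposited columns, the first names the chromosome, and the others give where the left anchor starts (counted from 0) and where the right anchor ends. Positions are printed counted from 1.

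Anchors were taken as 5 kb wide. Transcript starts came from GENCODE release 44 lifted to GRCh37. As a check of this reading, a start lay in 42.3% of the WT anchors of chromosome 1, against 28.3% and 26.7% of the bins after and before them. The STAG2-KD list held 1 line off the 5 kb grid, not on chromosome 1. Distance was taken between anchor midpoints, and a loop was shared when both bins were the same. Intervals are exact Clopper-Pearson at 95%, or binomial order statistics for medians. Both treat loops as independent, although several share an anchor. No test was made between lists. Matching was tested on simulated data. Python 3.11.15, numpy 2.4.6, scipy 1.17.1 and matplotlib 3.10.9 were used.

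The members and gene lists were chosen with earlier results of these data known. Named were the 10 members, the protein-coding genes at their partner anchors and the fixed lists. Alternatives were starts in the next bin, protein-coding transcripts only, canonical starts, tolerances of 1 and 2 bins, scaled WT counts, the earlier 50% of lines, each member left out, other distance measures and other partner promoters.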

Additional observations from a re-analysis of the deposited data

How the results depend on the processing

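No paired analysis was possible because there was 1 loop list per group, and for the same reason no replicate could be left out. Of 145 values under alternatives, over 36 results, 121 stayed within 1.5 times the reported count or inside its interval. Some of the 121 were bound to stay. Among these were the scaled WT counts, the medians under a limit of 1 Mb, which no member loop exceeded, and the shares with a member without loops left out. The counts of members without loops under settings with fewer starts also had to stay. So did the shares where every loop of the member left out remained through another member. The intervals of shares and medians were also wide, so the tally is no measure of stability. With canonical starts only, the STAG2-KD list held 9 member loops and 1 contact within the cluster, because fewer starts qualify. With starts in the next bin allowed, contacts within the cluster numbered 3 in WT and 7 in STAG2-KD, because more bins qualify. Both counts include a loop with both ends at or next to bins of S100A11. In this setting 8 and 10 members had a loop. With a start within 5 kb of the partner anchor counted, 100% of outward WT loops and 83.3% of outward STAG2-KD loops had a promoter there. The protein-coding starts added were those of the members S100A6, S100A2 and S100A11. Of the other values that moved, 16 were counts of single members and 2 were the counts of protein-coding starts toward lower coordinates. Each member left out in turn gave a shared part of 55.6% to 71.4% in WT and of 38.5% to 50% in STAG2-KD. With the earlier 50% of the chromosome 1 lines of each list, it was 60% in WT and 27.3% in STAG2-KD, inside the interval but over 1.5 times lower than the reported 42.9%. The canonical starts, protein-coding transcripts for the distance, the loops inside a group left out and the 5 kb view by side were added after the lists had been seen. The lists hold called loops without read support, so depth cannot be weighed against any of these counts.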

Other observations

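Genes of proteins that bind S100 proteins were read in the same lists. Of 7 such genes, 6 had a loop in each list, with 2 higher in STAG2-KD, 2 higher in WT and 2 equal. Over all protein-coding genes 60.9% in WT and 63.2% in STAG2-KD had no loop, and of those with a loop 34.4% had more in STAG2-KD and 43.5% more in WT. AHNAK, a large scaffold bound by the complex of S100A10 and annexin A2, had 10 WT and 13 STAG2-KD loops, with 5 in both lists. MYH9, the nonmuscle myosin heavy chain that S100A4 binds, had 8 and 7, of which 1 was shared. ANXA2, the partner of S100A10, had 1 and 2 with 0 shared. ANXA11 had 4 and 3 with 2 shared, ANXA6 had 2 and 2 with 0 shared, and AGER, the receptor for several S100 proteins, had 1 and 1 with 0 shared. ANXA1 had 0 in both lists.

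Outside the 1q21 band, S100B on chromosome 21 had 3 WT and 2 STAG2-KD loops, with 1 in both lists. S100P and S100Z had 0 in both lists. These counts have no replicate and are given as values.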
